A study of Mus musculus with 12 samples.

Results

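Macrophage and leukocyte genes of the mouse main olfactory epithelium (MOE) were followed through 10 genes, *Ptprc*, *Cd68*, *Csf1r*, *Aif1*, *C1qa*, *C1qb*, *C1qc*, *Cx3cr1*, *Cd74* and *Tyrobp*. A gene was taken where a probe set carried its symbol and no other, which gave 1 probe set for each of the 10 genes. The array held 35556 probe sets, 21789 of them with a single gene symbol, for 19938 genes in all. RNA of the MOE was measured on 1 array for each of 6 ΔJ and 6 wild-type mice. ΔJ mice lack the J element, a *cis*-regulatory element in the class I odorant receptor gene cluster, on both alleles, and the wild-type mice carry it. The ΔJ mice come from a single founder line, made by genome editing in hybrid B6C3F1 eggs and then crossed to C57BL/6NCrSlc mice. The paper names the second backcross generation for the arrays and calls the wild-type mice littermates. The labels give C57BL/6 as the strain of both groups. The ΔJ group held 3 males and 3 females, 5 of them at postnatal day 30 (P30) and 1 at P33, and the wild-type group held 2 males and 4 females, 4 at P30 and 2 at P33. The study asked what the deletion does to odorant receptor genes, and the immune genes show the state of the other cells in the same dissected tissue.

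Macrophages sit in the olfactory epithelium and the lamina propria beneath it, where they take up dying olfactory sensory neurons (OSNs), a cell type that is replaced throughout life. CSF1R is the receptor that most tissue macrophages need to survive, C1q opens the classical complement pathway and tags cell debris, and CX3CR1 binds fractalkine, a chemokine made by neurons. CD74 is the invariant chain that guides MHC class II molecules to the compartment where they load peptide, and its gene responds to interferon gamma through the class II transactivator CIITA.

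The genes lie on 7 chromosomes in GRCm38.p6, and only the C1q genes are close neighbours. *C1qb* (chr4:136880126-136886200), *C1qc* (chr4:136889801-136892936) and *C1qa* (chr4:136895916-136898844) follow each other on chromosome 4. *Ptprc* is on chromosome 1, *Tyrobp* on 7, *Cx3cr1* on 9, *Cd68* on 11, *Aif1* on 17, and *Cd74* and *Csf1r* on 18. RefSeq start-site windows, from 250 bases before to 50 bases after the start, were at hand for 6 of the 10 genes. Both strands were searched for AGGAAGT, a core that ETS factors bind, among them PU.1, the factor that directs macrophage development. The motif was chosen after the windows had been read. The windows of *Ptprc*, *C1qb* and *C1qc* held it and those of *Cd68*, *Aif1* and *Cx3cr1* did not, while 10.7% of the 27025 genes with a window held it. The 3 windows are shown because they are those that held the motif. All are on the minus strand of GRCm38.p6, at chr1:138175256-138175555 for *Ptprc*, chr4:136886151-136886450 for *C1qb* and chr4:136892865-136893164 for *C1qc*, and capitals mark the motif or its reverse complement ACTTCCT.
*Ptprc*: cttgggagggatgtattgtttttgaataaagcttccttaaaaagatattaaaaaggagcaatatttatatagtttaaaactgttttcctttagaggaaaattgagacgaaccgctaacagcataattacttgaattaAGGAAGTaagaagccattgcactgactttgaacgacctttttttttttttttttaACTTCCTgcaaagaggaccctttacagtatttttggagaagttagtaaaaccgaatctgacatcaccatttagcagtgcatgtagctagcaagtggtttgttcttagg
*C1qb*: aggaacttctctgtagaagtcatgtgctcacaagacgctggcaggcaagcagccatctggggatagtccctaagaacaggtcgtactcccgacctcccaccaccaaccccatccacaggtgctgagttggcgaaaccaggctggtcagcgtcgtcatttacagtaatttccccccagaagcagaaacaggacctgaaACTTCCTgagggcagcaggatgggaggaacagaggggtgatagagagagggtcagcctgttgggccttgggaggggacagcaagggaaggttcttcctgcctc
*C1qc*: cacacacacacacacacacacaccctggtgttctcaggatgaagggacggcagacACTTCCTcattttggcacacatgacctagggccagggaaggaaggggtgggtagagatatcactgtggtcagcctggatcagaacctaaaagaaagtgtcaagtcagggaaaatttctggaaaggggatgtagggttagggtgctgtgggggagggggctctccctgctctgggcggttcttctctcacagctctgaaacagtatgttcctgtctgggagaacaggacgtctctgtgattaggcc
The first base of the motif lay at -113 and -58 from the start of *Ptprc*, at -53 for *C1qb* and at -195 for *C1qc*. A match of 7 letters is a description of the window and not a binding site.

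Values are log2 signals from which the 75th percentile of the array was subtracted, so 0 is the level that 75% of the probe sets of an array lie below. The labelled tissue was borne out by *Omp*, the marker of mature OSNs, at 3.88 to 4.05 over the 12 mice, and by *Cyp2g1*, a sustentacular cell gene, at 4.78 to 5.00. *Olfr544* and *Olfr552*, 2 class I odorant receptor genes, separated the genotypes without overlap, and 4 genes tied to sex matched the labelled sex of every mouse. The arrays of replicates 1 to 3 and of replicates 4 to 6 stood apart in both genotypes, with an SD over all probe sets of 2.07 to 2.13 and of 2.20 to 2.23, and the labels do not say what separates them. They are called the first and the second array set below, and each set holds 3 mice of each genotype. All mice of the first set were at P30, and the P33 mice, ΔJ replicate 6 and wild-type replicates 5 and 6, were all in the second. ΔJ replicate 5 also stood apart, being the highest of the 12 mice in 16.7% of all probe sets and in 1 of the 10 genes, and the lowest in 20.9% of all probe sets. Wild-type replicate 3 was the highest in 25.9% of all probe sets, *Cx3cr1* among them, and in 11.8% with the array median subtracted in place of the 75th percentile. In RNA from whole tissue, fewer cells of a type and less RNA per cell cannot be told apart.

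None of the 10 genes passed the test for a difference between ΔJ and wild-type mice. With limma and Benjamini-Hochberg adjustment over all 35556 probe sets, 0 of 10 passed an adjusted p of 0.05, where 0.135% of all probe sets did, and 0 of 10 had an unadjusted p under 0.05, where 3.33% of all probe sets did. The 2 genotypes overlapped in all 10 genes, while they did not in 0.301% of all probe sets. The adjusted p of the 10 genes ran from 0.993 to 0.998. The log2 fold change of ΔJ over wild-type was positive for 9 of the 10 genes, against 39.8% of all probe sets, and its median was 0.09, against -0.03 over all probe sets. Without ΔJ replicate 4 the median fell to 0.03 and 6 of 10 were positive, and without ΔJ replicate 5 the median was 0.08 and 8 of 10 were positive. Without either mouse the median was -0.01 and 4 of 10 were positive. Both mice are given apart in what follows.

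*Ptprc* encodes CD45, the tyrosine phosphatase on the surface of all nucleated blood cells. Its level ran from -1.55 to -0.82 in ΔJ mice (median -1.34) and from -1.61 to -1.23 in wild-type mice (median -1.34). ΔJ replicate 4 gave the -0.82, and the other 5 ΔJ mice lay at -1.55 to -1.22. The log2 fold change was 0.09 ± 0.12 (SE), and -0.01 ± 0.09 without ΔJ replicate 4.

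Of the genes of resident macrophages, *Cd68* encodes a glycoprotein of the lysosomes of phagocytes, and *Aif1* encodes IBA1, the actin-bundling protein by which microglia and macrophages are stained. *Cd68* ran from -0.76 to 0.02 in ΔJ mice (median -0.24) and from -0.57 to -0.04 in wild-type mice (median -0.34). *Aif1* ran from -2.95 to -2.27 in ΔJ mice (median -2.60) and from -3.01 to -2.52 in wild-type mice (median -2.72). The genotypes overlapped for both genes, and the log2 fold changes were 0.02 ± 0.16 (SE) and 0.11 ± 0.12 (SE). *Aif1* was dim, above no more than 26.9% to 39.7% of the probe sets of an array, and whether it exceeded background was not tested.

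*Csf1r* encodes the receptor for CSF1 and IL34. It ran from 0.09 to 0.60 in ΔJ mice (median 0.41) and from 0.13 to 0.49 in wild-type mice (median 0.30), and lay above the 75th percentile on all 12 arrays. *Cx3cr1*, the fractalkine receptor gene, ran from -1.25 to -1.03 in ΔJ mice (median -1.15) and from -1.44 to -0.98 in wild-type mice (median -1.15). The ΔJ mice lay inside the wild-type range of *Cx3cr1*, and its log2 fold change was 0.03 ± 0.08 (SE), with a 95% interval of -0.15 to 0.20. For *Csf1r* the log2 fold change was 0.09 ± 0.10 (SE).

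The C1q genes encode the 3 chains of 1 protein complex, which in most tissues is made by macrophages. *C1qa* ran from -0.60 to -0.03 in ΔJ mice (median -0.47) and from -0.75 to -0.42 in wild-type mice (median -0.45). *C1qb* ran from -0.16 to 0.34 in ΔJ mice (median 0.03) and from -0.31 to 0.20 in wild-type mice (median 0.01). *C1qc* ran from -1.28 to -0.61 in ΔJ mice (median -1.10) and from -1.36 to -0.89 in wild-type mice (median -1.22). For each chain the highest of the 12 values was that of ΔJ replicate 4. The log2 fold changes were 0.14 ± 0.11, 0.09 ± 0.10 and 0.15 ± 0.13 (SE), and without ΔJ replicate 4 they were 0.08, 0.03 and 0.07. The unadjusted p of *C1qa*, 0.198 with limma, was the smallest of the 10 genes.

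*Tyrobp* encodes DAP12, the adaptor that carries the signal of TREM2 and related receptors. It ran from -1.63 to -0.95 in ΔJ mice (median -1.49) and from -1.53 to -1.14 in wild-type mice (median -1.38). ΔJ replicate 5 was the highest mouse and ΔJ replicate 4 the next, while the other 4 ΔJ mice lay at -1.63 to -1.42. *Tyrobp* was the 1 gene with a fold change below 0, at -0.01 ± 0.12 (SE).

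*Cd74* varied most. It measured 1.15, 1.15, 1.39, 2.38, 1.07 and 1.44 in ΔJ replicates 1 to 6 and 1.25, 1.11, 0.93, 1.00, 1.53 and 1.63 in wild-type replicates 1 to 6. ΔJ replicate 4 stood 0.76 above the next mouse, wild-type replicate 6, and the other 5 ΔJ mice lay inside the wild-type range. The log2 fold change was 0.19 ± 0.21 (SE), with a 95% interval of -0.27 to 0.64, and without ΔJ replicate 4 it was -0.01, with a 95% interval of -0.30 to 0.29. The SD of *Cd74* within a genotype was 0.40, larger than that of 87.7% of all probe sets, and 0.24 without ΔJ replicate 4. The median SD of the 10 genes was 0.22, against 0.19 over all probe sets. Without ΔJ replicate 4 these medians were 0.185 and 0.194.

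**Figure D1:**
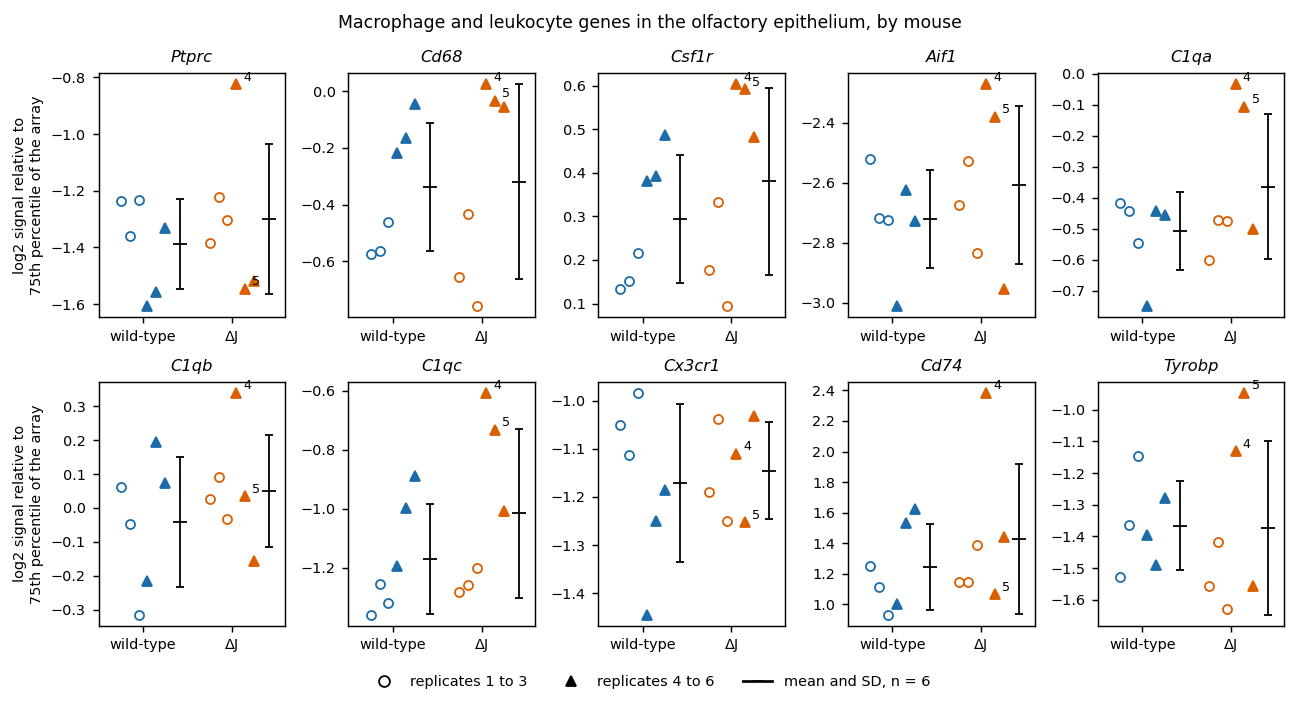
Log2 signal relative to the 75th percentile of the array (vertical axis, own scale for each gene) for the 10 genes in 6 wild-type and 6 ΔJ mice; circles are replicates 1 to 3, triangles replicates 4 to 6, numerals mark ΔJ replicates 4 and 5, and bars give the mean and SD (n = 6). ΔJ replicate 4 is the highest of the 12 mice in 8 of 10 genes, and the genotypes overlap in each gene.

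The intervals bound what these arrays can show. For 9 of the 10 genes the 95% interval of the genotype difference ended below 0.45 on the log2 scale, and for *Cd74* it ended at 0.64, a 1.56-fold higher level. The lowest ends were -0.32 for *Cd68*, a fold of 0.802, and -0.27 for *Cd74* and *Tyrobp*. Within the first array set the median log2 fold change of the 10 genes was -0.03, with 4 of 10 positive, against 40.7% of all probe sets. Within the second set, which holds ΔJ replicates 4 and 5, it was 0.19, with 10 of 10 positive, against 42.3% of all probe sets. The difference between the sets was tested as an interaction, and 0 of 10 genes passed, as did 0% of all probe sets. With an unadjusted p under 0.05 the count was 0 of 10, where 3.83% of all probe sets reached it. The smallest unadjusted p was that of *C1qa*, 0.0540 with limma (adjusted p = 0.909). The median interaction of the 10 genes was 0.22, and 0.12 without ΔJ replicate 4. A fit with sex as a further term called 0 of 10 genes by sex, where 0.0141% of all probe sets were called.

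**Figure D2:**
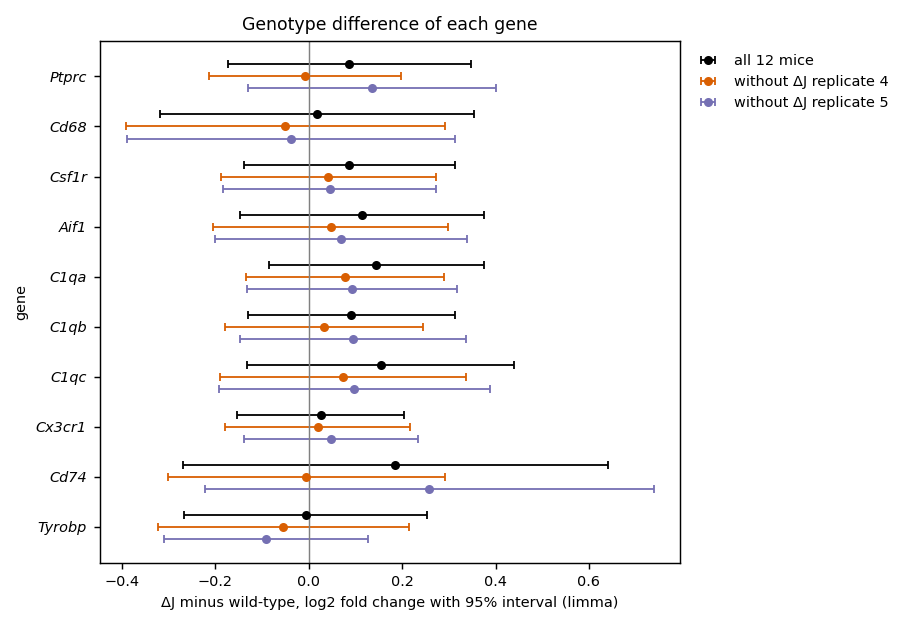
Log2 fold change of ΔJ over wild-type with its 95% interval from limma (horizontal axis) for each of the 10 genes, with all 12 mice (black), without ΔJ replicate 4 (orange) and without ΔJ replicate 5 (violet). Each interval spans 0 in all 3 fits, and the estimate for *Cd74* moves from 0.19 to -0.01 without ΔJ replicate 4.

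*Cd68*, *Csf1r* and *C1qc* were higher in the second array set in mice of both genotypes. In the first set *Cd68* measured -0.66, -0.43 and -0.76 in ΔJ and -0.57, -0.56 and -0.46 in wild-type mice, and in the second set 0.02, -0.03 and -0.06 in ΔJ and -0.22, -0.16 and -0.04 in wild-type mice. The sets did not overlap, nor did they for *Csf1r* and *C1qc*, and in 5.17% of all probe sets every array of the second set lay above every array of the first. The difference was 0.49 ± 0.07 on the log2 scale (SE; limma with genotype as a term, adjusted p = 1.61e-04), or 1.41-fold. *Csf1r* ran from 0.09 to 0.33 in the first set and from 0.38 to 0.60 in the second, a difference of 0.31 ± 0.05 (SE; limma, adjusted p = 8.37e-04). *C1qc* ran from -1.36 to -1.20 and from -1.19 to -0.61, a difference of 0.37 ± 0.08 (SE; limma, adjusted p = 2.41e-03). The count was 3 of 10 genes higher and 0 lower, while 10.4% of all probe sets were called higher in the second set and 31.8% lower. The sets differ over much of the array, and the part of the whole-array difference in these 3 genes was not tested. The 3 calls held without the percentile shift, with the median subtracted in its place and after quantile normalization. With these scalings 24.4%, 17.5% and 15.6% of all probe sets were called higher. The 3 calls also held in the P30 mice alone, where 8.06% of all probe sets were called higher.

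*C1qa* differed between the sets by 0.11 ± 0.10 (SE) and *C1qb* by 0.08 ± 0.10 (SE), against the 0.37 of *C1qc*, and neither passed the test. A difference between the chains was not tested. *Cd74* differed by 0.34 ± 0.19 (SE; limma, adjusted p = 0.172), *Tyrobp* by 0.14 and *Aif1* by 0.01, and *Ptprc* and *Cx3cr1* each lay 0.11 lower in the second set, a direction that turned without the percentile shift (0.03 for both). *Ptprc* passed as lower in the second set, at -0.22, when ΔJ replicate 4 was left out (limma). Subtracting the percentile shifted the median of all probe sets between the sets from 0.05 to -0.10, so these directions are relative to that shift.

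The platelet genes *Ppbp* and *Pf4* also differed between the array sets. Of the 5 red cell and platelet genes measured, *Ppbp* and *Pf4*, chemokine genes of platelets, were higher in the second set by 0.81 (limma, adjusted p = 9.01e-04) and 0.42 (limma, adjusted p = 1.60e-03), and the mean of the 5 ran from -0.34 to -0.01 in the first set and from 0.01 to 0.64 in the second. Of the 11 gland and respiratory epithelium genes 5 also passed as higher and 1 as lower. Of the 20 macrophage and microglia genes 2 passed as higher and 4 as lower, and of the 15 pan-leukocyte genes 3 and 1. Of the 16 complement genes 2 passed as higher and 4 as lower, and of the 9 T cell genes 0 and 5. Over all probe sets 10.4% passed as higher and 31.8% as lower. The part of blood content or of the dissection in the differences of *Cd68*, *Csf1r* and *C1qc* was not tested.

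**Figure D3:**
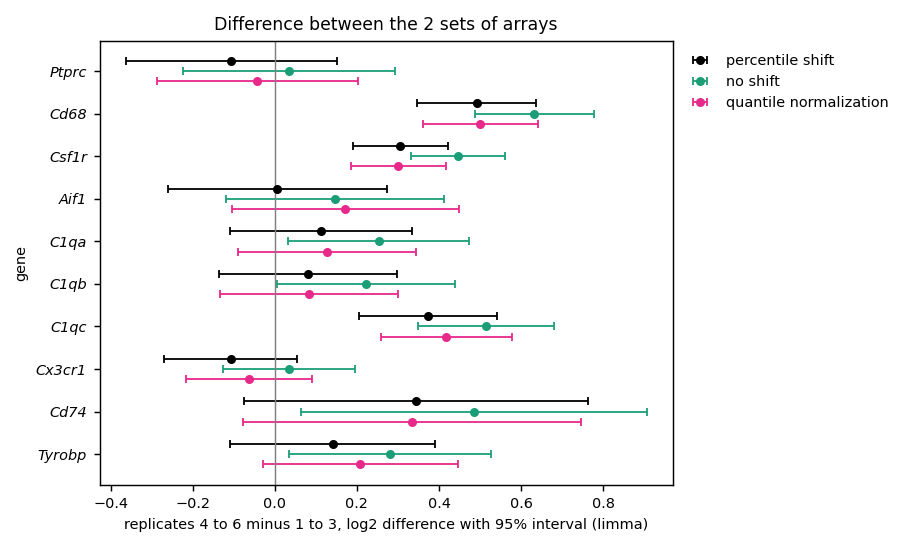
Log2 difference of replicates 4 to 6 minus replicates 1 to 3, with genotype as a term, and its 95% interval from limma (horizontal axis) for each of the 10 genes, with the 75th percentile shift (black), with no shift (green) and after quantile normalization (pink). *Cd68*, *Csf1r* and *C1qc* lie above 0 with each scaling, and *Ptprc* and *Cx3cr1* change side without the shift.

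ΔJ replicate 4, a female at P30, gave the highest signal for most of these genes. It was the highest of the 12 mice in 8 of the 10 genes, all but *Cx3cr1* and *Tyrobp*, whereas it was the highest in 4.03% of all probe sets. With the array median subtracted or no shift the count was again 8, and after quantile normalization it was 7. Averaged over the 10 genes as a deviation from the mean of the 12 mice, it lay at 0.41, and the other mice lay between -0.17 (wild-type replicate 4) and 0.14 (ΔJ replicate 5). Leaving out *Cd74* left its mean at 0.34. This is 1 mouse, so the values are a description and carry no test.

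The antigen presentation genes were high in the same mouse. *H2-Ab1*, *H2-Aa* and *H2-Eb1* encode chains of the MHC class II molecules that CD74 accompanies. *H2-Ab1* measured 1.89 in ΔJ replicate 4 and 0.10 to 0.82 in the other 11 mice, 2.78-fold above the wild-type mean. *H2-Aa* measured 1.27 against -0.24 to 0.50, and *H2-Eb1* 0.45 against -0.96 to -0.11. *Ciita*, the gene of the transactivator, measured -1.38 against -2.26 to -1.84. No other mouse overlapped with ΔJ replicate 4 in these 4 genes. Of the 11 MHC class II presentation genes 6, the member *Cd74* among them, had their highest value in it, against 4.03% of all probe sets. *H2-Oa* and *H2-Ob*, which encode the DO molecule of B cells, did not, at -2.68 and -2.61 there. *H2-Aa* and *H2-Eb1* also passed as higher in the second array set, by 0.53 (limma, adjusted p = 0.0233) and 0.51 (limma, adjusted p = 0.0193).

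Interferon response genes were high in the same mouse and, less so, in ΔJ replicate 3. Of 9 genes, 7 had their highest value in ΔJ replicate 4, and the mean deviation of the list was 0.84 there, 0.28 in ΔJ replicate 3 and -0.31 to 0.02 in the other 10 mice. *Irf7*, a transcription factor gene that interferon induces, measured 0.07 in ΔJ replicate 4, -0.80 in ΔJ replicate 3 and -1.52 to -0.84 in the others. *Ifit3*, an antiviral gene, measured -0.11, -0.99 and -2.14 to -1.66. The chemokine gene *Cxcl9*, which interferon gamma induces and which draws T cells, measured 1.11 in ΔJ replicate 4, 9.90-fold above the wild-type mean, -1.01 in ΔJ replicate 3 and -2.52 to -1.64 in the others. *Cxcl10* measured -0.68 in ΔJ replicate 4 and -2.67 to -1.94 in the other 11 mice. *Cxcl9* and *Cxcl10* belong to a separate list of 12 inflammatory cytokine and chemokine genes. Of that list 4 genes had their highest value in ΔJ replicate 4 and 4 in wild-type replicate 3, where 4.03% and 25.9% of all probe sets had theirs. The genes named here and the class II genes were picked from the fixed lists after their values were seen.

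The genotype comparison of the class II and interferon response lists followed the same mouse. The median log2 fold change of the 11 class II genes was 0.12 with 7 positive, and -0.005 with 4 positive without ΔJ replicate 4. For the 9 interferon response genes it was 0.07 with 8 positive, and -0.07 with 2 positive without it. Over all probe sets 39.8% were positive with all mice and 44.1% without ΔJ replicate 4. No gene of either list passed an adjusted p of 0.05 with limma in either fit. In the class II list 2 genes had an unadjusted p under 0.05, and in the interferon response list 0 did. The 2 were *H2-Oa* at -0.20 (limma, adjusted p = 0.993) and *Lgmn*, which encodes a lysosomal protease, at 0.12 (limma, adjusted p = 0.993).

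**Figure D4:**
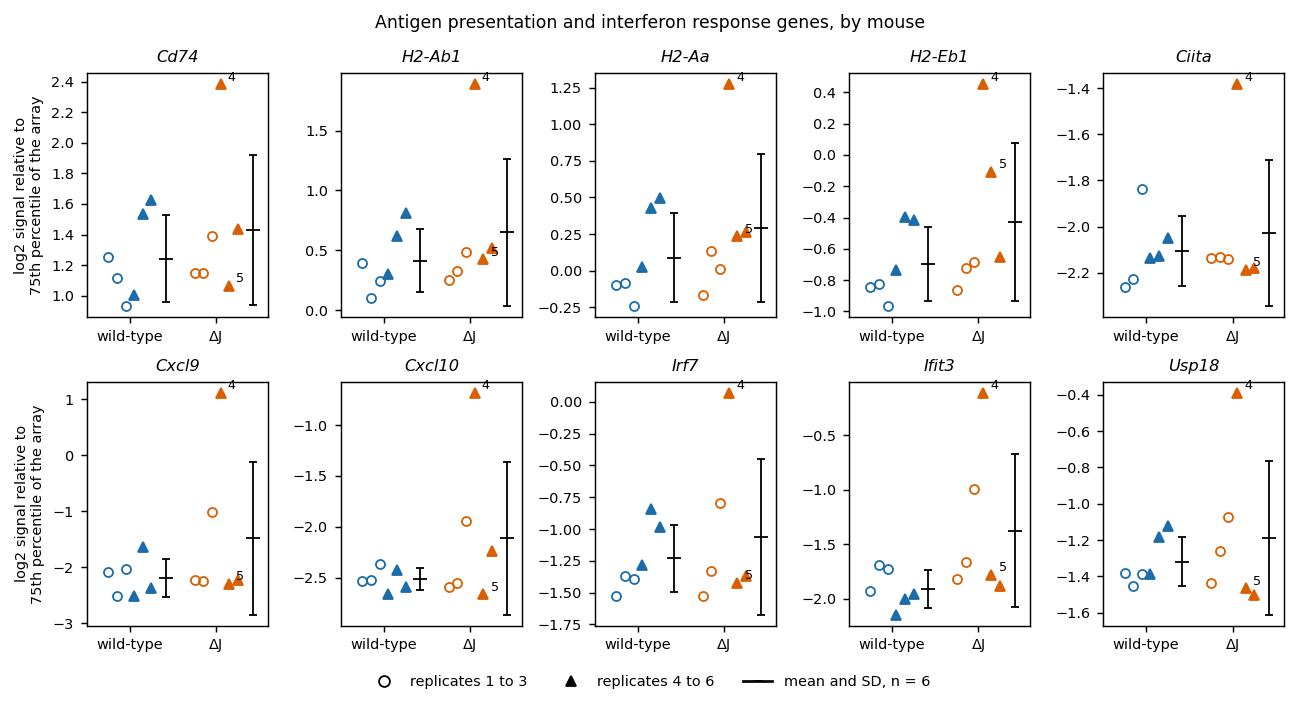
Log2 signal relative to the 75th percentile of the array (vertical axis, own scale for each gene) of 5 MHC class II presentation genes (upper row) and 5 interferon-induced genes (lower row) by mouse, with symbols as in the plot of the 10 genes. ΔJ replicate 4 lies above the other 11 mice in all 10 panels, and ΔJ replicate 3 is the next mouse for *Cxcl9*, *Cxcl10*, *Irf7*, *Ifit3* and *Usp18*. Apart from *Cd74*, the genes were picked after their values were seen. In the full lists ΔJ replicate 4 was the highest in 6 of 11 class II, 7 of 9 interferon response and 4 of 12 cytokine and chemokine genes.

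The other leukocyte lists were less evenly high in ΔJ replicate 4. Of 15 pan-leukocyte genes 8 had their highest value there, with a list mean of 0.27 against -0.11 to 0.20 in the other mice. So did 8 of 16 complement genes, with a list mean of 0.17 against -0.15 to 0.07. *Ptprc* is among these pan-leukocyte genes, and *C1qa*, *C1qb* and *C1qc* are among these complement genes, so both lists share genes with the 10 members. The 20 genes of macrophages and microglia had 3 highest values there, with a list mean of 0.06 against -0.07 to 0.05. Over all probe sets ΔJ replicate 4 was the highest in 4.03%. *Adgre1*, which encodes the macrophage antigen F4/80, measured -1.43 against -2.07 to -1.75 in the other mice, while *Trem2*, at -1.60, and *Mrc1*, at -0.71, lay within them. Lymphocyte lists did not stand out, with means of 0.05 for T cells, -0.02 for B and plasma cells and 0.05 for NK cells, each inside the range of the other mice. *Cd3e*, a chain of the T cell receptor complex, measured -1.42 against -1.95 to -1.20.

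The red cell genes *Alas2* and *Slc4a1* were highest in the same mouse, and the part of blood content in its values was not tested. The mean of the 5 red cell and platelet genes was 0.64 in ΔJ replicate 4, 0.27 in ΔJ replicate 5 and at most 0.16 in the others. Of the 5 genes 2, *Alas2* and *Slc4a1*, had their highest value in ΔJ replicate 4, and *Ppbp*, *Pf4* and *Itga2b* had theirs in other mice. *Alas2*, the first enzyme of haem synthesis in red cells, measured 0.59 in ΔJ replicate 4, 0.03 in ΔJ replicate 5 and -1.64 to -0.47 in the others. *Slc4a1*, the band 3 protein gene of red cells, measured 0.18 against -1.22 to -0.43. Of the 11 neutrophil genes 2 had their highest value in ΔJ replicate 4, against 4.03% of all probe sets. After quantile normalization 6 did, against 5.89% of all probe sets. The list mean was 0.26 in ΔJ replicate 4, against -0.19 to 0.12 in the other mice. *S100a8*, a neutrophil gene, measured -0.40 in ΔJ replicate 4 and -0.47 in ΔJ replicate 5, against -1.69 to -0.91. The endothelial, mature OSN and sustentacular cell lists lay at -0.01, 0.02 and 0.06, inside or at the edge of the range of the other mice.

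**Figure D5:**
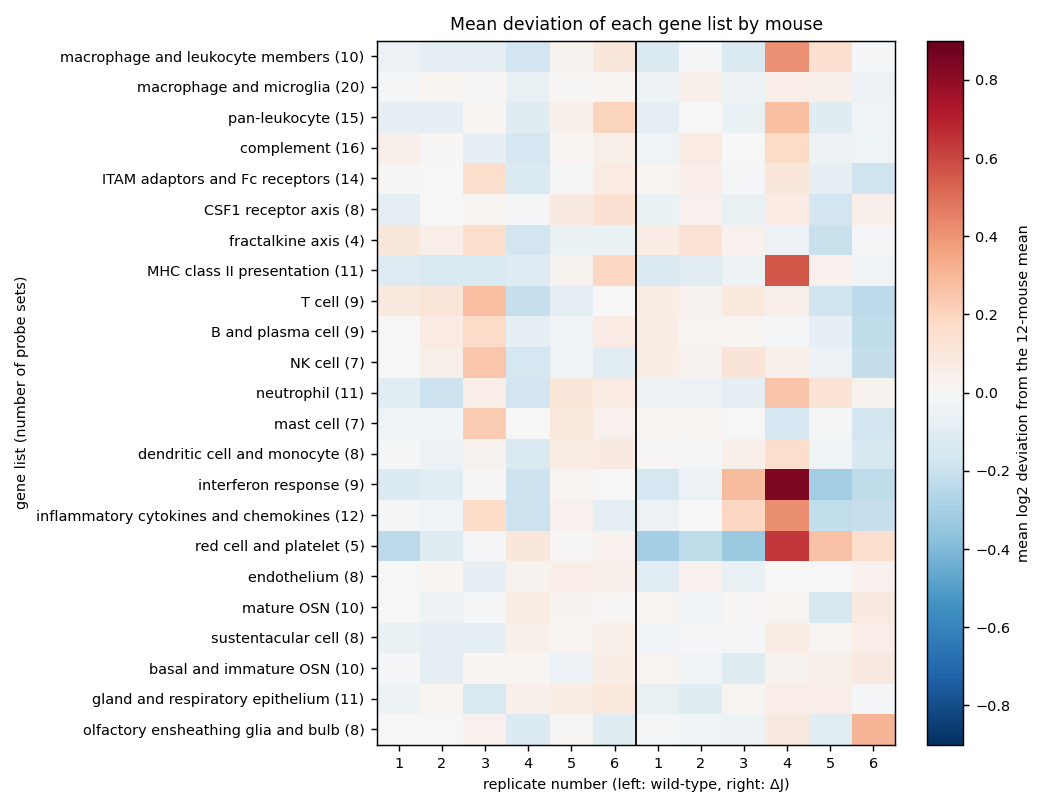
Mean log2 deviation from the 12-mouse mean (colour scale) of each gene list (rows, with the number of probe sets) in 6 wild-type mice (left of the line) and 6 ΔJ mice (right). The strongest colours are those of the interferon response (0.84), red cell and platelet (0.64) and MHC class II presentation (0.56) lists in ΔJ replicate 4.

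The genotype fit called no gene of the other lists, and the unadjusted p was under 0.05 for 3 of them, *H2-Oa*, *Lgmn* and *Cd79b* (limma). Over all probe sets 3.33% had an unadjusted p under 0.05. *Cd79b*, a chain of the B cell receptor complex, lay at -0.16 (limma, adjusted p = 0.993). Of the 9 B and plasma cell genes 8 were below 0, while 39.8% of all probe sets were above 0. By list, the median log2 fold change ran from -0.12 for the 7 mast cell genes to 0.12 for the class II genes. Among the ligands and partners of the 10 genes, *Csf1* and *Il34*, which encode the ligands of CSF1R, lay at -0.11 and 0.04. *Cx3cl1*, which encodes fractalkine, lay at -0.16, and *Spi1*, which encodes PU.1, at 0.02. *Fcer1g*, an adaptor gene like *Tyrobp*, lay at -0.002. None of these passed. Among the other immune cells, *Cd3e* of T cells lay at -0.13, *Ncr1* of NK cells at 0.08, *S100a8* of neutrophils at 0.25, *Cpa3* of mast cells at -0.13 and *Flt3* of dendritic cells at 0.06. Among the other tissue markers, *Omp* lay at 0.04, *Cyp2g1* at -0.01, *Pecam1* of endothelium at -0.08, *Sox9* of glands at -0.12 and *Alas2* at 0.30, none past the test.

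The 10 genes varied together only in part. Over the 45 pairs, the Pearson r across the 12 mice had a median of 0.48 and was positive in 40 pairs, and without ΔJ replicate 4 the median was 0.18, with 29 pairs positive. With the mean of each genotype and array set removed, the median was 0.47, with 43 pairs positive. These r share the same arrays and are given as a description. The closest pair, *Cd68* and *Csf1r*, had an r of 0.97 over 12 mice, 0.96 without ΔJ replicate 4 and 0.95 with the group means removed. *C1qa* and *C1qc* had an r of 0.76, and 0.91 with the group means removed, and *C1qa* and *C1qb* had 0.67 and 0.84.

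The genes outside the 10 that were most like their mean were *Ly86*, *Gimap4*, *H2-Eb1*, *H2-Aa*, *Tgfbi*, *Irf1*, *Chil3*, *Cfb*, *H2-Ab1* and *Klhl6*, with an r across the 12 mice of 0.947 for *Ly86* down to 0.879 for *Klhl6*. *Ly86* encodes MD-1, a partner of the receptor RP105 on B cells and macrophages, and *Cfb* encodes complement factor B. All 10 had their highest value in ΔJ replicate 4, and without it only *Ly86* stayed among the 10 most like the mean. By gene, the most like were *Dock2* for *Ptprc* (r = 0.904), *Mmp9* for *Cd68* (0.967) and *Csf1r* (0.973), *Fam114a2* for *Aif1* (0.886) and *1700073E17Rik* for *C1qa* (0.900). They were *Ifi203* for *C1qb* (0.842), *Cd52* for *C1qc* (0.950), *Rnf144a* for *Cx3cr1* (0.906), *H2-Ab1* for *Cd74* (0.957) and *Lgals1* for *Tyrobp* (0.919). *Cd74* and *H2-Ab1* kept an r of 0.864 over the 11 mice without ΔJ replicate 4, and *Cd68* and *Mmp9* one of 0.961.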

How the data were processed

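Total RNA of the MOE of 6 ΔJ and 6 wild-type mice was hybridized to Affymetrix Mouse Gene ST arrays by the authors, 1 array per mouse. The deposited values are log2 signals, 1 for each of 35556 probe sets. Affymetrix Expression Console is the program in the notes of the submitters, and the sources used here give no settings for it. Per the paper's methods, the 75th percentile was subtracted from each array. The same shift was applied here. Linear models with moderated variance (limma 3.58.1, R 4.3.3, two-sided, Benjamini-Hochberg over all probe sets) were run on the whole array, with genotype alone, with array set and genotype, with their interaction, and with sex. A probe set was named where the platform annotation gave 1 symbol; 1621 had several and 12146 none. The number of arrays limits the precision.

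The members and the gene lists were chosen with earlier results of these data known. Genes named are the 10 members, the 10 genes with the highest r to the member mean, the gene most like each member, and genes of each list with an unadjusted p under 0.05 or else its first; further list genes were chosen after their values were seen. Groups, sex, age and replicate numbers came from the labels. Same-numbered mice of the 2 genotypes deviated together from the genotype means (r across probe sets of 0.365, 0.294, 0.419, 0.441, 0.185 and 0.385 for numbers 1 to 6), but not once the array set means were removed (-0.14 to 0.08). Same-numbered mice share an array set, so the first measure does not show that the numbers pair the samples. A replicate block was fitted as an alternative. Other alternatives were the scaling, a filter on dim probe sets, covariates, array weights and leaving out mice; those leaving out ΔJ replicates 4 and 5 together were added after the data were seen. No pair of arrays held identical values.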

Additional observations from a re-analysis of the deposited data

Results flagged for a closer look

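Of 124 groups of 6 mice examined for 62 genes or list means, 11 had 1 mouse far from the other 5, by the gap to its nearest neighbour as a share of the range of the group. Chance gives about 1 in 20 groups where they are independent, which these are not: several genes were chosen for their likeness to the mean of the 10 members, which ΔJ replicate 4 leads, and some lists hold members. The 11 are therefore given as values. ΔJ replicate 4 was the mouse in 7 of them. These were *Cd74* (share of the range 0.717), *H2-Ab1* (0.833), *H2-Aa* (0.700), *Irf1* (0.655) and *Klhl6* (0.636), and the list means of the pan-leukocyte (0.708) and MHC class II presentation genes (0.756), all with ΔJ replicate 4 highest. *Irf1*, an interferon-induced transcription factor gene, measured -0.63 there and -1.26 in the next ΔJ mouse.

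The other 4 concerned different mice. *H2-Oa* was highest in ΔJ replicate 3 (0.637), at -2.48 against -2.61 in the next. *S100b*, a gene of olfactory ensheathing glia, was highest in ΔJ replicate 5 (0.642), at -0.54 against -0.72. *Krt5*, a gene of horizontal basal cells, was highest in wild-type replicate 6 (0.689), at 1.03 against 0.81. The mean of the macrophage and microglia list was lowest in wild-type replicate 4 (0.635), at -0.07 against -0.01.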

How the results depend on the processing

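In no setting was any of the 10 genes called by genotype, and *Cd68*, *Csf1r* and *C1qc* passed between the array sets in all 19 fits of that comparison. With the replicate number as a block, the median genotype difference was again 0.0893, with 0 genes called. The genotype differences were small beside their errors and several changed side. Within the first array set alone they were -0.0273 (*Ptprc*), -0.0824 (*Cd68*), -0.0241 (*Aif1*), -0.0466 (*C1qa*) and -0.11 (*Cx3cr1*), and within the second *Tyrobp* was 0.177. Without ΔJ replicates 4 and 5 they were -0.138 (*Cd68*), -0.0215 (*Csf1r*), -0.0265 (*Aif1*), -0.00296 (*C1qa*) and -0.0178 (*C1qc*). With the array set as a block as well they were -0.0253 (*Ptprc*), -0.0263 (*Cd68*), -0.0715 (*Aif1*) and -0.0148 (*C1qa*). With array weights they were -0.232 (*Cd68*), -0.0662 (*Csf1r*) and -0.046 (*C1qc*). In the P30 mice alone *Cx3cr1* was -0.02 and *Tyrobp* 0.0219, and *Tyrobp* was also above 0 with the median subtracted (0.036), no shift (0.00625), quantile normalization (0.0131) and sex as a covariate (0.0123). Leaving out 1 mouse at a time, the genotype difference ran from -0.00804 to 0.136 for *Ptprc*, -0.0499 to 0.106 for *Cd68*, -0.0287 to 0.0634 for *Cx3cr1*, -0.00515 to 0.262 for *Cd74* and -0.0912 to 0.0449 for *Tyrobp*, and *Ptprc* and *Cd74* were below 0 only without ΔJ replicate 4. Without ΔJ replicate 4 or 5 in turn, the interaction ran from -0.00713 to 0.353 for *Ptprc* and from -0.264 to 0.394 for *Cd74*.

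Between the array sets, *Ptprc* (0.034) and *Cx3cr1* (0.0331) changed side with no shift, and without ΔJ replicates 4 and 5 *Aif1* (-0.18), *C1qa* (-0.0472) and *Tyrobp* (-0.035) did. *Aif1* was -0.00883 with sex as a covariate and ran from -0.0682 to 0.0833 with 1 mouse left out. *Ptprc* passed as lower without ΔJ replicate 4 (-0.224) and without ΔJ replicates 4 and 5 (-0.219). Of the 10 genes most like the mean of the members, 6 stayed without ΔJ replicate 5, 1 without ΔJ replicate 4, and 4 with the group means removed. The cause of these changes was not tested. The deposited values carry no measure of signal over background, so whether dim probe sets such as that of *Aif1* measured their gene was not tested.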
